A study of Drosophila melanogaster with 7 samples.

Results

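The genes described here encode nuclear subunits of the mitochondrial oxidative phosphorylation complexes, measured in salivary glands of Drosophila melanogaster prepupae. Members were the genes whose symbol begins with ND-, COX and a digit, UQCR, SdhA to SdhD or ATPsyn and that had a probe set annotated to that symbol alone. The rule used names only and no measured value. It found 72 of the 11982 genes measured by such probe sets, and where a gene had several, the probe set that was brightest over the 7 arrays stood for it. Of the 72 genes, 51 carry the name of a subunit and 21 are paralogs whose symbol adds an L to a subunit's name. By complex, the subunit genes numbered 27 for complex I, 3 for complex II, 4 for complex III, 7 for complex IV and 10 for complex V.

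Oxidative phosphorylation makes most of the ATP of a respiring cell. Complex I (NADH dehydrogenase) and complex II (succinate dehydrogenase) pass electrons to ubiquinone, complex III passes them on to cytochrome c, and complex IV (cytochrome c oxidase) passes them to oxygen. Complexes I, III and IV pump protons across the inner mitochondrial membrane, and complex V (ATP synthase) makes ATP as the protons flow back. Each complex except complex II joins nuclear subunits, such as those measured here, with subunits encoded in the mitochondrial genome. The larval salivary gland is a secretory tissue with very large polytene nuclei, and it is removed by programmed cell death after puparium formation.

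The series profiled RNA from these glands on Affymetrix fly arrays to find genes that respond to GAL4, a yeast transcription activator used in flies to switch on transgenes. Line X1 (3 arrays) carried 2 copies of P{hs-GAL4}X1, and line 89 carried P{GAL4-Hsp70.PB}89-2-1, in 2 copies on 1 array and in 1 copy on another. The control strain w1118 (2 arrays) carried no GAL4 transgene. GAL4 was driven by a heat-shock promoter, all animals were kept at 25 °C and heat shocked at 37 °C for 30 min, and the glands were taken 14 h after puparium formation. The heat shock fell at 9 h in both GAL4 lines and at 9.5 h in w1118, so GAL4, heat shock time and strain background cannot be told apart wherever a GAL4 line is set against w1118. In whole glands, fewer cells of a type and less RNA per cell cannot be separated either.

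Median intensity over all fly probe sets was 33.7 to 38.0 on the X1 arrays, 44.9 (2 copies) and 40.8 (1 copy) on the line 89 arrays, and 42.3 and 42.5 on the w1118 arrays. The share of probe sets under an intensity of 16 was highest on X1 replicate 1, at 30.0%, and 18.8% to 23.7% on the others. The ratio of 5' to 3' signal of the bioB control RNA was 0.62 to 0.66 in X1 and 1.09 and 1.16 in w1118. It was 0.59 in 2-copy and 0.60 in 1-copy line 89. For fly GAPDH the ratio was 0.62 to 0.72 in X1 and 0.87 and 0.86 in w1118, and for eIF-4a 0.49 to 0.56 against 0.63 and 0.61. The actin ratios overlapped, at 0.25 to 0.42 in X1 and 0.37 and 0.38 in w1118. The 2-copy and 1-copy line 89 arrays had 0.69 and 0.83 for GAPDH, 0.37 and 0.57 for eIF-4a, and 0.31 and 0.46 for actin. The part of these ratios in the results was not tested. The 18 hybridization control probe sets, bioB among them, had mean log2 levels of 9.97, 10.07 and 10.47 in X1. These levels were 10.38 in 2-copy and 10.14 in 1-copy line 89, and 10.90 and 10.78 in w1118. Scaling to these controls, used below as an alternative, therefore raises the GAL4 arrays relative to w1118. The gland genes Sgs3, a glue protein, and sage, a gland transcription factor, had intensities of at least 592 and 164 on every array. Of 24 gland markers 3 were called higher and 2 lower in X1. Their sum was 117170 to 118540 in X1, 112180 in 2-copy and 97204 in 1-copy line 89 and 107410 to 111740 in w1118. The muscle marker Mlc2 stayed at or under 23.7 on every array, and the summed level of the 17 muscle markers was 14729 to 14909 in X1, 15674 in 2-copy and 15058 in 1-copy line 89 and 1831 to 1973 in w1118. That gap came mostly from TpnC73F, at 12379 to 12930 on the GAL4 arrays and 160 and 169 on the w1118 arrays, and 2 muscle markers were called higher and 3 lower in X1. Of 14 fat body markers 1 was called higher and 2 lower in X1, and their sum was 26965 to 32526 in X1, 36805 in 2-copy and 33296 in 1-copy line 89 and 29822 to 31270 in w1118. Of 21 hemocyte markers 0 were called higher by limma and 3 lower in X1, and their sum was 4332 to 5597 in X1, 6103 in 2-copy and 5664 in 1-copy line 89 and 3950 to 3982 in w1118. Of 14 midgut markers 1 was called higher and 2 lower in X1, and their sum was 1338 to 1990 in X1, 2198 in 2-copy and 859 in 1-copy line 89 and 867 to 2017 in w1118. Of 14 neuron markers 0 were called higher by limma and 1 lower in X1, and their sum was 932 to 1918 in X1, 664 in 2-copy and 974 in 1-copy line 89 and 661 to 788 in w1118. The part of other cell types in the results was not tested.

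In X1 glands, 3 members rose and 12 fell relative to w1118, and all 15 were named subunits (limma on log2 intensity, adjusted p under 0.05). The falls lay mostly in complex I, where 9 of 27 subunit genes fell and 1 rose with the deposited scaling. Scaling to hybridization controls left 0 falls in complex I and took lower calls over all fly probe sets from 1997 to 537. Complex II had 0 calls (1 rise at an unadjusted p under 0.05), complex III 1 fall, and complexes IV and V 1 rise and 1 fall each. Over all 11982 genes, 9.46% were called higher and 11.5% lower. Among the 5930 genes with a mean intensity of at least 64, 17.0% were called higher and 12.3% lower. The share called lower was 33.3% in complex I and 16.7% over the 72 members, and the share called higher over the members was 4.17%.

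The median log2 change in X1 relative to w1118 was -0.06 over the 72 members and -0.12 over all genes. By complex it was -0.28 for complex I, 0.30 for complex II, -0.04 for complex III, 0.09 for complex IV and 0.07 for complex V. All 3 X1 arrays lay below both w1118 arrays for 15 of the 27 complex I genes and 18 of all 51 subunit genes, and above both for 8 of the 51. Over all genes, 34.5% had every X1 array below w1118 and 22.0% every X1 array above. Scaling the arrays to the bacterial hybridization controls moved the median of all genes to 0.32 and that of complex I to 0.26. With it 14 of 27 complex I genes lay below the median of all genes, against 18 of 27 with the deposited scaling and 24 of 27 after quantile normalisation.

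**Figure D1:**
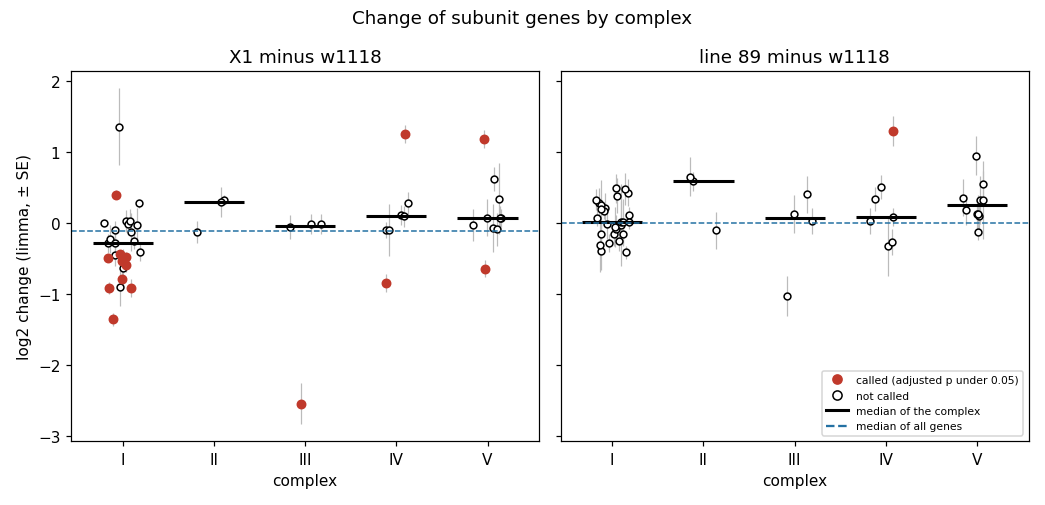
Log2 change of each subunit gene by complex (x axis), X1 minus w1118 on the left and line 89 minus w1118 on the right, with limma standard errors as bars. Filled red points are called genes, black bars the median of each complex and the dashed line the median of all genes. In X1 the complex I median lies at -0.28, below the all-gene line, and 9 complex I genes are called lower. With scaling to hybridization controls 0 complex I genes are called lower, and lower calls over all fly probe sets drop from 1997 to 537. In line 89 the 1 filled point is COX7A.

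Complex I was also compared with the other complexes within each array, which removes a constant factor between arrays and no other intensity effect. On each array, the median level of the 27 complex I genes, taken relative to the w1118 mean, was set against that of the other 24 subunit genes. Complex I was lower by this measure on all 3 X1 arrays, at -0.55, -0.28 and -0.25 on the log2 scale. The complex I medians were -0.23, -0.44 and -0.34, and those of the other genes 0.32, -0.16 and -0.09. The gap on replicate 1 thus came with high levels of the other genes. Complex I was least negative on that array, where the median of all genes was -0.18. The gap was -0.23 on the line 89 array with 2 copies and -0.05 on that with 1 copy. The w1118 arrays lay at 0.0048 and -0.0048. These 2 values mirror each other because levels were taken relative to the mean of the same 2 arrays. They therefore do not measure the spread of the gap. No test was made of this difference of medians, since the genes are not replicates. Quantile normalisation lowered the other complexes as well, with median log2 changes in X1 of -0.52 for complex I, 0.02 for II, -0.41 for III, -0.37 for IV and -0.30 for V, so the size of the gap depends on the array-wide adjustment.

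**Figure D2:**
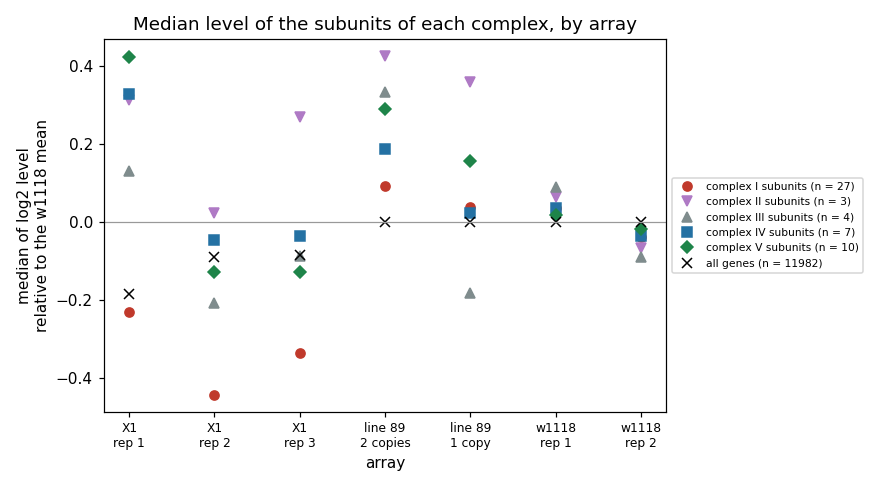
Median log2 level of the subunit genes of each complex relative to the w1118 mean (y axis) on each of the 7 arrays (x axis), with the median of all genes as crosses. Complex I is the lowest set on every X1 array, at -0.23, -0.44 and -0.34. Complexes IV and V are high on X1 replicate 1 (0.33 and 0.42) and near the median of all genes on the other X1 arrays.

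Complex I is an L-shaped assembly whose matrix arm oxidises NADH and carries the iron-sulfur clusters, and whose membrane arm pumps protons. A grouping by the position of the mammalian counterpart, made after the values were seen, put 11 of the 27 genes in the matrix arm and 14 in the membrane arm. In X1, 6 of the 11 matrix arm genes fell and 3 of the 14 membrane arm genes did, with the deposited scaling. The median log2 change was -0.43 for the matrix arm and -0.33 for the membrane arm. The 3 genes of conserved core subunits among the 27, ND-75, ND-51 and ND-20, were among the falls with the deposited scaling. The 27 genes do not cover every conserved core subunit of complex I. ND-ACP and ND-MLRQ were counted in neither arm.

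ND-51 encodes the flavoprotein subunit that takes electrons from NADH. Its intensity was 211, 230 and 270 in X1, 266 in 2-copy and 431 in 1-copy line 89, and 452 and 440 in w1118. X1 and the 2-copy line 89 array were low, and the 1-copy array lay close to w1118. The log2 change in X1 relative to w1118 was -0.92 ± 0.13 (SE, adjusted p = 0.0226).

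ND-75 encodes the largest subunit, which holds several of the iron-sulfur clusters. It had intensities of 86.3, 91.2 and 80.5 in X1, 131 in 2-copy and 163 in 1-copy line 89, and 156 and 169 in w1118. X1 was the low group and did not overlap either of the others. Its log2 change in X1 was -0.92 ± 0.08 (adjusted p = 0.00857).

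ND-20 encodes the subunit with the last iron-sulfur cluster before ubiquinone. It gave 379, 364 and 380 in X1, 538 in 2-copy and 383 in 1-copy line 89, and 505 and 503 in w1118. The X1 arrays lay close together, below w1118, and the 1-copy line 89 array was at nearly the same level as X1. The change was -0.43 ± 0.04 on the log2 scale (adjusted p = 0.0118), and it turned to 0.24 with scaling to the hybridization controls.

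ND-13B is an accessory subunit of the matrix arm and had the largest fall of complex I. Its intensity was 168, 161 and 182 in X1, 398 in 2-copy and 332 in 1-copy line 89, and 462 and 409 in w1118. All 3 X1 arrays lay far below every line 89 and w1118 array. The level in X1 was 2.55-fold lower than in w1118 (log2 change -1.35 ± 0.09, adjusted p = 0.00505).

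ND-39, an accessory matrix arm subunit related to short-chain dehydrogenases, had 277, 222 and 241 in X1, 346 in 2-copy and 355 in 1-copy line 89, and 436 and 414 in w1118. Both line 89 arrays lay between X1 and w1118. The log2 change in X1 was -0.79 ± 0.12 (adjusted p = 0.0264). ND-18, which helps to stabilise the NADH-oxidising module, had 199, 180 and 206 in X1, 202 in 2-copy and 207 in 1-copy line 89, and 268 and 276 in w1118. All 5 GAL4 arrays were below both w1118 arrays for this gene. Its change was -0.48 ± 0.08 in X1 (adjusted p = 0.0325) and -0.41 ± 0.09 in line 89 (adjusted p = 0.097). The X1 change turned to 0.19 with hybridization-control scaling.

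In the membrane arm, ND-PDSW, ND-SGDH and ND-19 fell. ND-PDSW had 255, 221 and 212 in X1, 346 in 2-copy and 372 in 1-copy line 89, and 348 and 337 in w1118. ND-SGDH had 234, 201 and 213 in X1, 368 in 2-copy and 345 in 1-copy line 89, and 310 and 312 in w1118. ND-19 had 176, 173 and 182 in X1, 304 in 2-copy and 259 in 1-copy line 89, and 260 and 239 in w1118. For these genes X1 was the low group without overlap, and line 89 lay at or above the higher w1118 array except for the ND-PDSW and ND-19 arrays at 346 and 259. The log2 changes in X1 were -0.58 ± 0.10 for ND-PDSW (adjusted p = 0.0363), -0.53 ± 0.08 for ND-SGDH (0.0305) and -0.50 ± 0.06 for ND-19 (0.0174). With hybridization-control scaling they were 0.09, 0.14 and 0.18.

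ND-MLRQ is named as a complex I subunit, although its mammalian counterpart is now placed with complex IV. Its intensity was 4787, 4633 and 4721 in X1, 5112 in 2-copy and 3934 in 1-copy line 89, and 3781 and 3385 in w1118, so that every GAL4 array was above both w1118 arrays. The log2 rise in X1 was 0.40 ± 0.07 (adjusted p = 0.0342), and the change was -0.08 after quantile normalisation. ND-ACP, the acyl carrier protein of mitochondria, had the largest positive value among the complex I subunit genes that were not called. It had 897, 338 and 337 in X1, 138 in 2-copy and 230 in 1-copy line 89, and 177 and 188 in w1118. The X1 arrays did not overlap w1118, but replicate 1 was far above replicates 2 and 3 (log2 change 1.36 ± 0.55, adjusted p = 0.194). Without replicate 1 the change was 0.89 (adjusted p = 0.0122). The other 2 probe sets of ND-ACP gave -0.66 and -0.82 (adjusted p = 0.454 and 0.225), so the probe sets of this gene disagreed in sign. The most negative of these uncalled complex I subunit genes was ND-B12, with 49.3, 31.0 and 50.4 in X1, 68.2 in 2-copy and 85.4 in 1-copy line 89, and 76.6 and 82.1 in w1118 (log2 change -0.90 ± 0.27, adjusted p = 0.112).

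**Figure D3:**
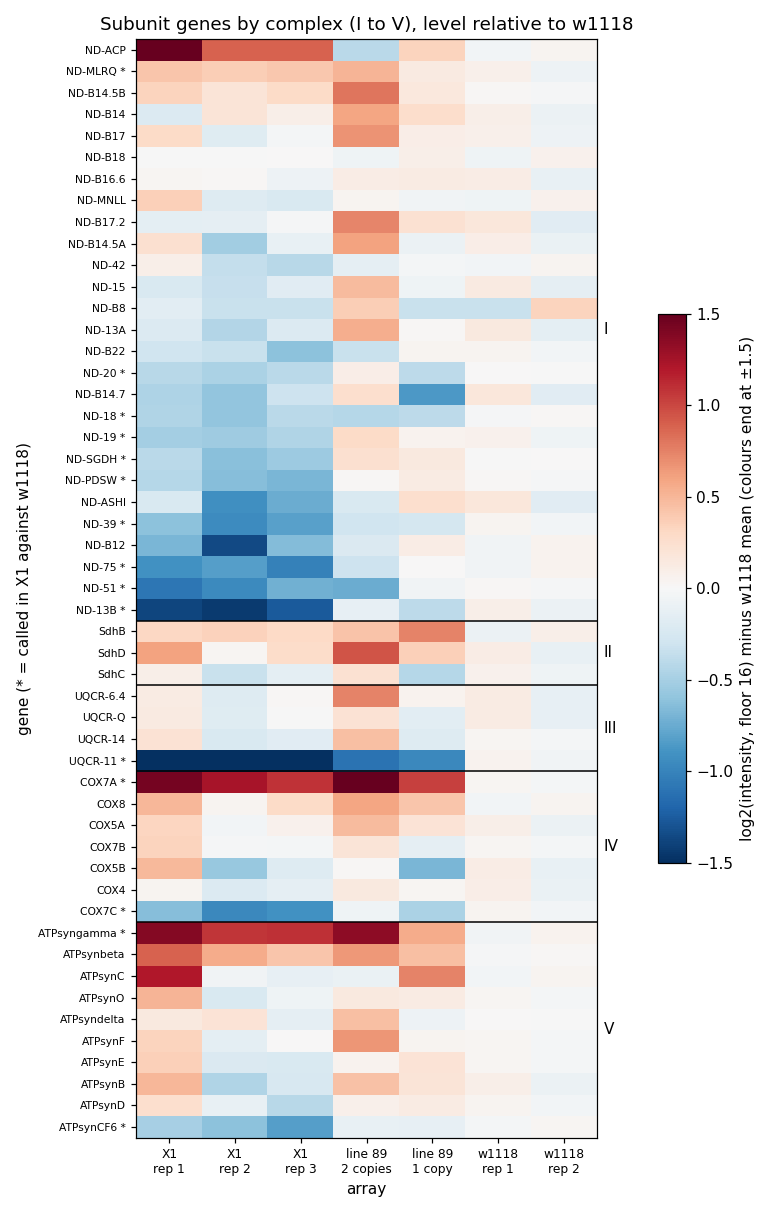
Level of the 51 subunit genes (rows, by complex, ordered within a complex by the change in X1) on each array (columns), as log2 intensity minus the w1118 mean, with colours ending at ±1.5. Stars mark the 15 genes called in X1 against w1118. The lower rows of complex I are blue in all 3 X1 arrays with the deposited scaling and mixed in line 89. Under scaling to hybridization controls 22 of the 27 complex I genes are positive, and the median of all genes is 0.32.

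Complex II is the enzyme that links the citric acid cycle to the respiratory chain. SdhB, its iron-sulfur subunit, had 826, 849 and 821 in X1, 894 in 2-copy and 1117 in 1-copy line 89, and 626 and 707 in w1118. Every GAL4 array was above both w1118 arrays, with log2 changes of 0.32 ± 0.07 in X1 (adjusted p = 0.0623) and 0.59 ± 0.13 in line 89 (adjusted p = 0.10). SdhC, a membrane anchor, had 395, 293 and 333 in X1, 433 in 2-copy and 275 in 1-copy line 89, and 387 and 354 in w1118, with overlapping groups (log2 change -0.13 ± 0.15 in X1, adjusted p = 0.622).

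In complex III, UQCR-11 showed the largest change of any member. Its intensity was 16.9, 23.6 and 30.3 in X1, 62.2 in 2-copy and 68.6 in 1-copy line 89, and 139 and 128 in w1118. The 3 groups did not overlap, and X1 lay close to the floor of 16 set on all values, so the size of the fall depends on that floor. With it, X1 was 5.82-fold lower than w1118 (log2 change -2.54 ± 0.29, adjusted p = 0.0149). This fall was the 1 called fall that held under scaling to hybridization controls (-1.87, adjusted p = 0.0101). The other complex III genes lay close together, from UQCR-14 at -0.06 ± 0.17 (adjusted p = 0.866) to UQCR-6.4 at -0.02 ± 0.14 (adjusted p = 1.00).

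Complex IV held a rise and a fall. COX7A encodes a small nuclear subunit, and it had 2731, 2382 and 2143 in X1, 2986 in 2-copy and 2062 in 1-copy line 89, and 1033 and 991 in w1118. Every GAL4 array lay far above both w1118 arrays. X1 was 2.38-fold higher than w1118 (log2 change 1.25 ± 0.12, adjusted p = 0.0113), and the change was 1.92 with hybridization-control scaling (adjusted p = 0.0344). The call was lost after quantile normalisation, with the replicate block, at an adjusted p under 0.01, and on leaving out either w1118 array or X1 replicate 2. COX7C, another small subunit, had 610, 486 and 508 in X1, 909 in 2-copy and 685 in 1-copy line 89, and 976 and 929 in w1118. All 5 GAL4 arrays were below w1118, with X1 lowest (log2 change -0.84 ± 0.12, adjusted p = 0.0265). The remaining genes ran from COX4 at -0.10 ± 0.11 (adjusted p = 0.623) to COX8 at 0.27 ± 0.16 (adjusted p = 0.339), and COX8 had 1101, 804 and 952 in X1, 1174 in 2-copy and 1045 in 1-copy line 89, and 761 and 801 in w1118. For COX7B the brightest probe set was not called (log2 change 0.09), while its dimmest, with means of 5.45 in X1 and 29.5 in w1118, was called lower (adjusted p = 0.0182).

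In complex V, ATPsyngamma, the central shaft of the rotor, rose. Its intensity was 1583, 1291 and 1309 in X1, 1550 in 2-copy and 900 in 1-copy line 89, and 589 and 636 in w1118. The GAL4 arrays did not overlap w1118, and the 1-copy line 89 array was the lowest of them. X1 was 2.27-fold higher than w1118 (log2 change 1.18 ± 0.12, adjusted p = 0.0122), and 1.85 with hybridization-control scaling on the log2 scale (adjusted p = 0.0321). The call was lost after quantile normalisation, with the replicate block, at an adjusted p under 0.01, with all 5 GAL4 arrays as 1 group, and on leaving out either w1118 array or X1 replicate 3. A second probe set of this gene gave 0.86 ± 0.20 (adjusted p = 0.0668). ATPsynCF6, a subunit of the peripheral stalk, fell, with 1050, 971 and 840 in X1, 1368 in 2-copy and 1360 in 1-copy line 89, and 1455 and 1513 in w1118. Here X1 lay below both other groups (log2 change -0.64 ± 0.12, adjusted p = 0.0405), but the change was 0.03 with hybridization-control scaling.

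The catalytic subunit ATPsynbeta had 2745, 2184 and 1983 in X1, 2340 in 2-copy and 2035 in 1-copy line 89, and 1474 and 1507 in w1118. All GAL4 arrays were above w1118, but the log2 change of 0.62 ± 0.17 was not called (adjusted p = 0.0912), and its second probe set gave 0.62 ± 0.20 (adjusted p = 0.124). The most negative uncalled gene of the complex was ATPsynD, a stalk subunit, at -0.09 ± 0.23 (adjusted p = 0.843). ATPsynC, the ring through which protons pass, had 1438, 606 and 577 in X1, 587 in 2-copy and 1052 in 1-copy line 89, and 608 and 647 in w1118, so that 1 array of each GAL4 line stood well above the rest. Of the 36 subunit genes that were not called in X1 against w1118, 32 differed by less than 1.5-fold.

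**Figure D4:**
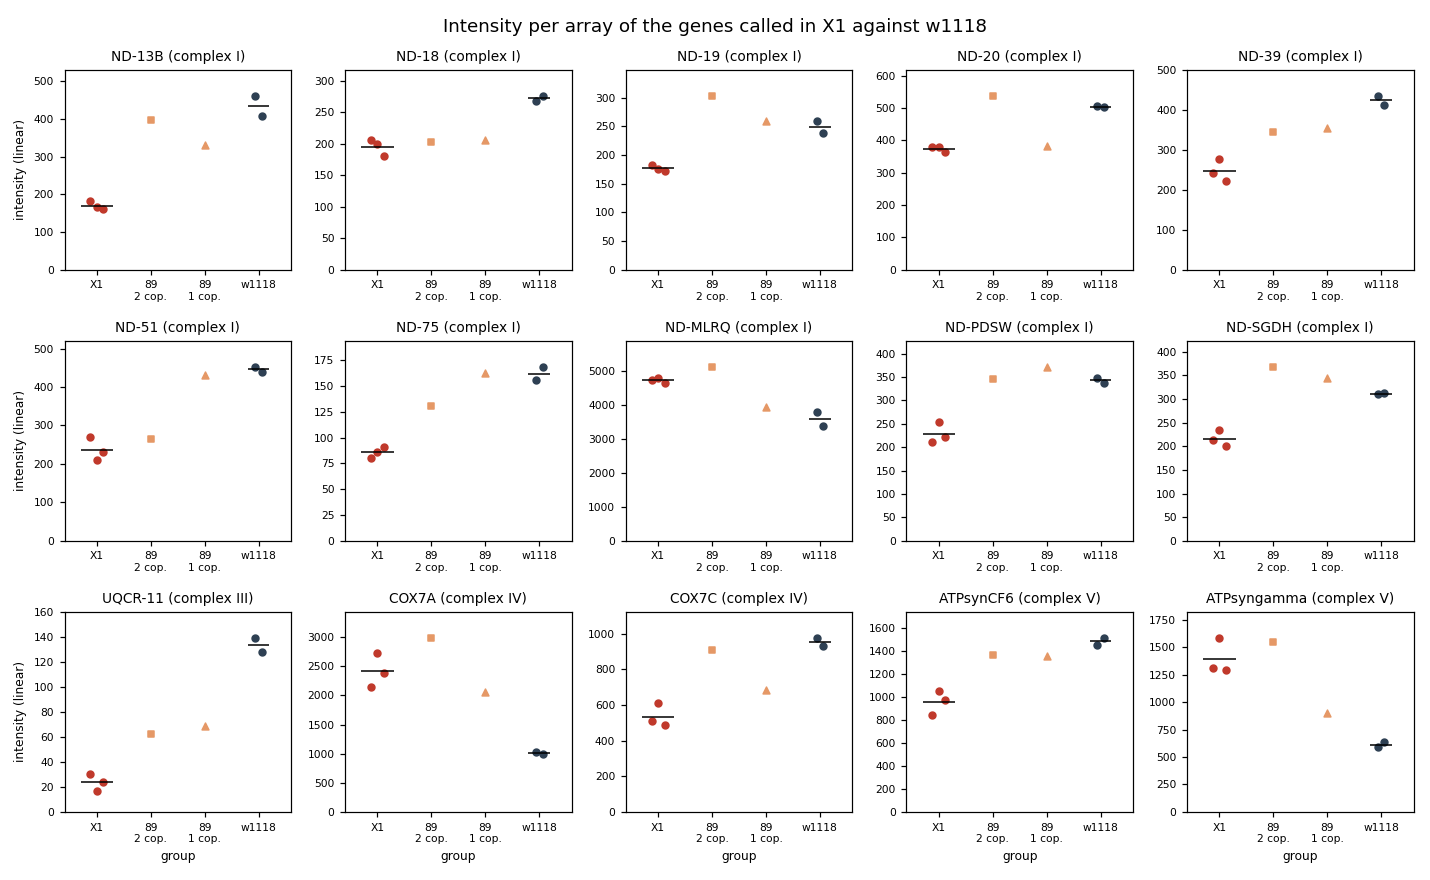
Intensity (linear y axis from 0) of the 15 members called in X1 against w1118, 1 panel per gene, with 3 X1 arrays, 1 line 89 array with 2 copies, 1 with 1 copy and 2 w1118 arrays from left to right, and the mean of X1 and of w1118 as black bars. In every panel the X1 points lie wholly above or wholly below the w1118 points. COX7A and ATPsyngamma are high in both GAL4 lines, and UQCR-11 is at 16.9 to 30.3 in X1 against 139 and 128 in w1118.

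X1 replicate 1 stood apart from the other X1 arrays in these genes. It was the highest X1 array for 35 of the 51 subunit genes, among them all 7 of complex IV and 9 of 10 of complex V, whereas it was highest for 29.0% of all genes and 30.6% of those with a mean intensity of at least 64. The median complex V level relative to w1118 was 0.42 on replicate 1 and -0.13 on each of the other 2. Leaving out an array changed the counts of called members. Without X1 replicate 1, 6 members were called higher and 12 lower, and ND-ACP, ATPsynbeta, SdhBL and SdhCL were among the rises while ND-MLRQ was not. Without X1 replicate 2, without X1 replicate 3 or without w1118 replicate 1, there was 1 rise and 4 falls. Without w1118 replicate 2 there were 2 rises and 6 falls. The calls over all fly probe sets moved too, and with all 5 arrays they were 1407 higher and 1997 lower. They were 1939 and 2231 without X1 replicate 1, 771 and 848 without X1 replicate 2, 738 and 925 without X1 replicate 3, 692 and 1623 without w1118 replicate 1, and 730 and 1653 without w1118 replicate 2. ND-13B and ND-75 were called lower in all 5 of these analyses, and ND-18 in 0 of them.

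Across all 17 alternative analyses of X1 against w1118, the call held in 14 for ND-13B, 13 for ND-75, 11 for UQCR-11 and for COX7A, 10 for ATPsyngamma and 9 for ND-19 and for ND-20. It held in 7 for ND-39, ND-51, COX7C and ATPsynCF6, in 6 for ND-18, ND-MLRQ and ND-PDSW, and in 5 for ND-SGDH.

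Line 89 was compared with w1118 with both of its arrays as 1 group. COX7A was the 1 member called, with a log2 rise of 1.29 ± 0.21 (adjusted p = 0.0463), and 0 members fell, with 5 rises and 2 falls at an unadjusted p under 0.05. Over all genes 3.54% were called higher and 1.57% lower in this comparison. The COX7A call held in 6 of 19 alternatives, and it was lost when any array but the 1-copy one was left out. The median log2 change was 0.08 over the members, 0.12 over the subunit genes and 0.01 over complex I, against 0 over all genes. UQCR-11 had the most negative value, -1.03 ± 0.28 (adjusted p = 0.146), and among the named subunits ATPsyngamma followed COX7A on the positive side at 0.95 ± 0.28 (adjusted p = 0.171). Line 89 and X1 were set against the same w1118 arrays, so their changes share the error of those arrays.

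The GAL4 lines were then compared directly, with no w1118 value in the difference. ND-13B was lower in X1 than in line 89 by a log2 difference of -1.09 ± 0.12 (adjusted p = 0.034), and ND-SGDH by -0.73 ± 0.09 (adjusted p = 0.0418). No member was called higher (2 at an unadjusted p under 0.05), and 0.985% of all genes were called higher and 1.38% lower. In complex I, 25 of 27 genes had a negative difference, and the median was -0.39. The other 2 were ND-ACP and ND-MLRQ, the genes counted in neither arm. The other complexes leaned the same way, with 3 of 3 genes negative in complex II and 4 of 4 in III. In complexes IV and V it was 5 of 7 and 7 of 10, and over all subunit genes 44 of 51. The medians of complexes II to V were -0.27, -0.30, -0.18 and -0.14. Over all genes the share with a negative difference was 59.3% and the median -0.13. With scaling to hybridization controls 22 of 27 complex I genes were still lower in X1, and the median of all genes was -0.07. Neither call held when a w1118 array or an X1 array was left out, which changes the pooled spread. With the 2-copy line 89 array alone, 6 members were called lower, among them ND-19 and ND-20. With the 1-copy array alone, 3 members were called lower, namely ND-13B, ND-19 and ND-75. Over all fly probe sets, lower calls numbered 786 with the 2-copy array alone, 730 with the 1-copy array alone and 234 with both.

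Within line 89, 1 array with 2 copies was set against 1 array with 1 copy, which allows no test. The 2-copy array was higher for 34 of 51 subunit genes, including all 7 of complex IV, and lower for 17. The median log2 difference was 0.25 over the subunit genes and 0 over all genes. At least 1.5-fold, 10 subunit genes were higher and 3 lower, while 21.8% of all genes were higher and 19.4% lower by that fold. The differences ran from -0.84 for ATPsynC to 1.12 for ND-B14.7, which had 648 with 2 copies and 299 with 1 copy. ATPsyngamma was among the larger positive values at 0.78, and ND-51 among the negative ones at -0.70.

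The 21 like-named paralogs were dim. Their mean intensity over the 7 arrays ran from 8.40 to 64.6, and 17 of them had at least 1 array at or under 16. In the fly many such duplicates of mitochondrial genes are expressed mainly in the testis. None of the 21 was called in any of the 3 limma comparisons (at an unadjusted p under 0.05, 1 rise in X1 against w1118, 0 changes in line 89 against w1118, and 1 rise and 1 fall in X1 against line 89), and their median change was 0 in X1. SdhBL had 29.3, 91.6 and 104 in X1, 7.71 in 2-copy and 2.90 in 1-copy line 89, and 4.94 and 9.06 in w1118. X1 stood above every other array, at least 4.08-fold over w1118, whose arrays all lay under the floor (adjusted p = 0.138). SdhCL showed 17.8, 30.0 and 35.4 in X1 against 4.75 and 12.8 in w1118 (at least 1.67-fold, adjusted p = 0.252). ATPsynGL had 5.50, 4.85 and 2.90 in X1 but 126 and 11.2 in w1118, and SdhAL was highest on the 2-copy line 89 array, at 63.0.

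COX4L was the other paralog whose X1 and w1118 arrays did not overlap, with 72.1, 66.7 and 109 in X1, 77.5 in 2-copy and 34.9 in 1-copy line 89, and 31.7 and 60.0 in w1118 (log2 change 0.89 ± 0.40, adjusted p = 0.235). COX7AL lay at or under 16 on all 7 arrays, and UQCR-11L, UQCR-14L, COX6AL2 and COX7AL2 did so on 6. The X1 and w1118 arrays overlapped for these and for ND-20L, ND-24L, ND-51L1, ND-51L2, ND-B14.5AL, COX5BL, COX6AL, COX6CL, ATPsynbetaL, ATPsynCF6L and ATPsynepsilonL.

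Respiratory genes outside the naming rule were read from lists. Of 8 further subunit genes measured, 1 rose in X1 and 0 fell. The riser was Cyt-c1, the haem-bearing subunit of complex III that hands electrons to cytochrome c, with 618, 423 and 468 in X1, 390 in 2-copy and 375 in 1-copy line 89, and 252 and 249 in w1118 (log2 change 0.99, adjusted p = 0.0476). Of 19 assembly genes, 2 rose and 3 fell. Cox10 and Cox17, which supply haem and copper to complex IV, rose by 1.64 and 1.09 on the log2 scale (adjusted p = 0.0136 and 0.00735). Nubpl, an iron-sulfur assembly factor of complex I, had 239, 320 and 322 in X1, 395 in 2-copy and 591 in 1-copy line 89, and 728 and 730 in w1118 (log2 change -1.33, adjusted p = 0.0191). Fdx1, a mitochondrial ferredoxin, fell by 1.75 (adjusted p = 0.000808), and bsf, an RNA-binding protein of mitochondria, by 1.18 (adjusted p = 0.024).

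In the citric acid cycle list, 4 of 20 genes rose and 1 fell in X1. The counts of this and the other lists stand beside 9.46% of all genes called higher and 11.5% called lower. Idh, the NADP-dependent isocitrate dehydrogenase, had 7966, 8781 and 7583 in X1, 6206 in 2-copy and 6433 in 1-copy line 89, and 1401 and 1345 in w1118, with log2 changes of 2.56 in X1 (adjusted p = 0.00138) and 2.20 in line 89 (adjusted p = 0.00152). Idh3a, of the NAD-dependent enzyme, rose by 2.59 and Pdp, the pyruvate dehydrogenase phosphatase, by 2.17 (adjusted p = 0.0116 and 0.00807). Fum3, a fumarase at 12.0 to 17.3 in X1 and 22.0 and 25.4 in w1118, fell by 0.49 (adjusted p = 0.0396). Among 32 carriers and import genes, 1 rose and 3 fell. Dic1, a dicarboxylate carrier, rose by 2.70 (adjusted p = 0.00254), and Mpc1, of the pyruvate carrier, fell by 1.97 (adjusted p = 0.00146). Both remaining falls were import genes near the floor, tomboy20 at -0.90 and Tim17b2 at -0.33 (adjusted p = 0.0258 and 0.0271). Of 20 genes of mitochondrial transcription and its regulators, 1 rose and 5 fell, among them Drp1 (a fission protein) at 1.39, clu at -0.50 and mTerf3 at -1.45 on the log2 scale (adjusted p = 0.0312, 0.0132 and 0.0209).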

How the data were processed

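The deposited values are intensities on a linear scale that the authors computed with dChip and normalised to 1 baseline array with a median intensity of 145, per the labels and series text. The dChip version and model are not given in the sources used here. Of the fly probe sets (18769, after leaving out 183 controls), 13647 had 1 gene symbol, 402 several and 4720 none. All 72 members matched the reference gene table (Release 6 assembly, used for names), and 4 probe sets that share a member's name with another gene were left out. A floor of 16 was set before taking log2.

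X1 and w1118 were compared with limma 3.58.1 (lmFit, eBayes, two-sided) in R 4.3.3 on 5 arrays. The comparisons with line 89 used 1 fit of all 7 arrays in 3 groups, both line 89 arrays being 1 group. P-values were adjusted by Benjamini-Hochberg over 18769 probe sets and called under 0.05. Counts at an unadjusted p under 0.05 are given without the share of all genes at that level, so they cannot be set against it. Errors are standard errors from limma. Precision is limited by the number of arrays. The series text calls the X1 and w1118 arrays biological replicates. The steps were tested on simulated data. Alternatives were quantile normalisation, scaling to hybridization controls, a replicate block, floors of 1 and 64, trended or robust variances, a brightness filter, a stricter threshold, other groupings, the mean of a gene's probe sets, and leaving out each array.

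Members, lists, tests and alternatives were chosen with earlier results of these data known. Named genes were every called member, the largest uncalled rise and fall of each complex, every paralog, and up to 3 called genes per direction of each other list; ATPsynC, COX7B, ND-B14.7 and the marker genes were named after their values were seen. From the lists, 3 entries that are not mitochondrial genes were dropped after values were seen, and the complex I arms were assigned then too. A planned count of promoter motifs was not run.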

Additional observations from a re-analysis of the deposited data

Results flagged for a closer look

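The size of the change differed between the GAL4 lines for 2 members, as tested by limma on X1 minus line 89. ND-13B, an accessory subunit of complex I, was lower in X1 than in line 89 by -1.09 on the log2 scale (adjusted p = 0.034), with 168, 161 and 182 in X1 and 398 in 2-copy and 332 in 1-copy line 89. ND-SGDH, a membrane arm subunit of complex I, was lower by -0.73 (adjusted p = 0.0418), with 234, 201 and 213 in X1 and 368 in 2-copy and 345 in 1-copy line 89. In both genes X1 lay below w1118, whereas the line 89 arrays lay below w1118 for ND-13B and above it for ND-SGDH. The ND-13B difference held in 7 of 18 alternatives and the ND-SGDH difference in 3 of 18. The transgene insertion and the background of each line cannot be told apart here. Copy number also differed in the tested groups, since line 89 joined a 2-copy and a 1-copy array and every X1 array had 2 copies. The bioB 5' to 3' ratio was 0.62 to 0.66 in X1 and 0.59 in 2-copy and 0.60 in 1-copy line 89. The eIF-4a ratio was 0.49 to 0.56 in X1, 0.37 in 2-copy and 0.57 in 1-copy line 89. The GAPDH ratio was 0.62 to 0.72 in X1, 0.69 in 2-copy and 0.83 in 1-copy line 89. The part of these ratios in the difference was not tested.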

How the results depend on the processing

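For X1 against w1118 (3 members higher, 12 lower, median -0.06), quantile normalisation gave 0 higher and a median of -0.25. Over all probe sets it gave 1483 higher, against 1407 with the deposited scaling. Scaling to hybridization controls gave 1 lower and a median of 0.56. Lower calls over all probe sets were then 537, against 1997 with the deposited scaling. Fewer falls were called with a floor of 1 (2) or 64 (6), at an adjusted p under 0.01 (0 higher, 2 lower) and with all 5 GAL4 arrays as 1 group (1 higher, 1 lower). Over all probe sets, falls in these settings numbered 1201, 674, 579 and 606. Rises at an adjusted p under 0.01 numbered 602, and with all 5 GAL4 arrays as 1 group 624. The replicate block gave 0 higher and 0 lower, with 0 calls over all probe sets and 13 of 51 subunit genes at an unadjusted p under 0.05. The share of all genes at that unadjusted level is not given, so the 13 cannot be set against it. Leaving out 1 array gave 1 to 6 higher and 4 to 12 lower. The sign turned for ND-MLRQ after quantile normalisation (-0.0811) and, with hybridization-control scaling, for ND-18 (0.19), ND-19 (0.18), ND-20 (0.24), ND-PDSW (0.0867), ND-SGDH (0.14) and ATPsynCF6 (0.0269). For line 89 against w1118 (1 higher, 0 lower, median 0.08), higher calls were 0 after quantile normalisation, with a floor of 1 or 64, with the robust variance, with the replicate block and at an adjusted p under 0.01. They were 3 with hybridization-control scaling, beside 1252 over all probe sets against 513 with the deposited scaling. On leaving out X1 replicate 1, 2 or 3 they were 0, beside 464, 198 and 175 over all probe sets. With the 2-copy array alone the median was 0.10. There was 1 lower with quantile normalisation and 1 with a floor of 64, and the median was -0.11 after quantile normalisation and 0.60 with hybridization-control scaling. For X1 against line 89 (0 higher, 2 lower, median -0.18), the 1 lower call with hybridization-control scaling was UQCR-11 (-1.42, adjusted p = 0.0495). UQCR-11 was not called with the deposited scaling. Over all probe sets, lower calls went from 234 to 142 with hybridization-control scaling. Among the members, lower calls were also 1 with quantile normalisation, the filter at 100 or the intensity trend. They were 0 with a floor of 1 or 64, the robust variance, the replicate block or an adjusted p under 0.01, and 6 with the 2-copy array alone. Leaving out 1 array gave 0 to 1 higher, 0 to 6 lower and medians of -0.31 to -0.0662, and the median was -0.0637 with a floor of 64 and -0.31 with the 2-copy array alone. The cause of these shifts was not tested. The deviations of same-numbered X1 and w1118 arrays from their group means had correlations of -0.049 and -0.012. The deviations of the 2 w1118 arrays mirror each other, so these values cannot decide whether the numbers pair the samples. The main comparisons did not pair them.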

Other observations

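Called members did not move with their chromosomal neighbours in every case. In the order of the reference annotation, ND-75 lies between Trxr1, a thioredoxin reductase gene, and CG1632. In X1 against w1118 the log2 change was 2.48 for Trxr1 (adjusted p = 0.00305) and 2.34 for CG1632 (adjusted p = 0.0237), while ND-75 changed by -0.92. ATPsynCF6, at -0.64, lies beside Sec13, a coat protein gene, which changed by 2.38 (adjusted p = 0.00208). ATPsyngamma, which rose, lies beside IntS11, which changed by -0.44 (adjusted p = 0.0262). Other called members fell beside a gene that also fell. ND-SGDH, at -0.53, lies beside Atg12, an autophagy gene, at -1.43 (adjusted p = 0.0335). ND-39 lies beside ZnT77C at -1.85 (adjusted p = 0.0294) and ND-20 beside Slc25A46a at -1.05 (adjusted p = 0.0285). ND-PDSW lies beside Pif1 at -0.93 (adjusted p = 0.0162), whose mean intensity was 11.9 in X1 and 30.6 in w1118. The other neighbours of ND-39, ND-20 and ND-PDSW were not called. They were CG32425 at -0.51, eIF5 at 0.53 and msl-2 at 0.66 (adjusted p = 0.0857, 0.0503 and 0.0895). Most of the measured neighbours of called members were not called. The neighbours given here were named after their values were seen.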
